A study of Homo sapiens with 16 samples.

Results

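The replication-cluster histone genes are the genes whose symbols begin with HIST1H, HIST2H, HIST3H or HIST4H, and 53 of the 16558 genes measured carry such a symbol. Membership was decided by symbol alone, but with earlier results of these data already known. RNA was measured in 16 libraries from 8 clones. All derive from HepG2, a cell line established from a human liver tumour. The series used prime editing at PNPLA3, at the position that encodes the I148M variant. Its clones have the genotypes GG (clones 1, 2 and 6), GC (clones 2, 3 and 4) and CC (clones 1 and 3). Which of these genotypes differ from the parental line is not stated here. Each clone gave 1 library from cells treated with 250 µM palmitic acid, a saturated fatty acid, and 1 library from control cells. Treatment lasted 48 h by the protocol, while the labels of the single treated libraries run from 48 to 55 h. The labelled hours rise in sample order, from 48 to 50 h in GG, 51 to 53 h in GC and 54 to 55 h in CC clones. They were used in no comparison, and between genotypes the labelled hours and the genotype cannot be told apart. A genotype is thus represented by 2 or 3 clones, each 1 clonal line, and n counts clones. Nothing in the labels says whether the libraries of a genotype came from separate cultures beyond being separate clones, so the tests measure the spread between clones. The table of gene values cannot show the edited base itself.

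Histone proteins package DNA: pairs of H2A, H2B, H3 and H4 form the nucleosome core, and H1 binds the linker DNA between cores. The genes of the replication clusters are short and mostly without introns, are transcribed mainly in S phase through NPAT, and give RNAs that end in a conserved stem-loop in place of a poly(A) tail. SLBP binds that stem-loop and, with the U7 small nuclear ribonucleoprotein, directs cleavage of the 3' end, and the RNAs are degraded when DNA synthesis stops. Some of the genes can also give longer polyadenylated RNAs. The libraries were made from total RNA after ribosomal RNA depletion, a preparation that does not select for a poly(A) tail.

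Of the 53 genes, 40 belong to the HIST1 cluster on chromosome 6 (chr6:26021679-27893843, GRCh38), 12 to HIST2 on chromosome 1 (chr1:149782689-149887916) and 1, HIST4H4, to chromosome 12 (chr12:14767999-14771131). By class, 4 encode H1, 13 H2A, 15 H2B, 10 H3 and 11 H4, and 52 are annotated as protein-coding. HIST2H2BC is annotated as a pseudogene. Exact or near copies limit what can be said of single genes. HIST2H2AA3 and HIST2H2AA4, HIST2H3A and HIST2H3C, and HIST2H4A and HIST2H4B had identical values in all 16 libraries, so their reads cannot be parted and each pair enters every count of genes as 2 members. Whether the counting split the reads of a pair or gave them to both genes is not shown by the table. If given to both, summed shares, above all of H2A, H3, H4 and HIST2, count those reads 2 times. HIST2H3C overlaps HIST2H4A on the opposite strand, and HIST2H3A likewise overlaps HIST2H4B. HIST1H2BN overlaps HIST1H2AL on the same strand and HIST1H2AK on the opposite one, and HIST1H3D shares bases with AL031777.3. AL031777.3 also overlaps HIST1H2AD, on the same strand. The libraries were directional, but it is not given in the sources used here whether strand entered the counting.

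The stem-loop was searched as letters in the GENCODE v29 transcripts and was found in 26 of the 53 genes. The annotated models of many of the others end at the coding region, so a missing match says nothing of their RNA. The sequences printed show the forms carried by genes described in the results, with HIST2H4A added as the H4 form of HIST2. The RNA base U is written as T, 5 flanking bases stand on each side in lower case, and the capitals mark the stem-loop.
HIST1H3H, chromosome 6: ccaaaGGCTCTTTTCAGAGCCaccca
HIST1H4B, chromosome 6: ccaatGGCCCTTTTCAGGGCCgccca
HIST4H4, chromosome 12: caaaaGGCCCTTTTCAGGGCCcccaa
HIST1H2BC, chromosome 6: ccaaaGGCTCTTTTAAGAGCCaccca
HIST2H4A, chromosome 1: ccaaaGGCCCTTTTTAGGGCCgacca
The form of HIST1H3H was present in 15 genes of the H2A, H2B and H3 classes, the form shared by HIST1H4B and HIST4H4 in 5 H4 genes, that of HIST1H2BC in 3 H2B genes and that of HIST2H4A in 2 genes. The last form, in HIST2H2BC alone, is not printed. HIST1H4B and HIST4H4 thus carry the same stem-loop letters.

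Promoter windows of 300 bases were available for 49 of the 53 genes from RefSeq (GRCh38.p14), 48 of them reaching from 250 bases before to 50 bases after the start of the gene. The 250 bases before the start are printed for 4 genes that fell with palmitic acid in all clones, 1 from each of the classes H1, H2B, H3 and H4, and for HIST4H4, which varied least between clones. Capitals mark every match, on either strand, to 4 motifs known from histone promoters: the TATA box (TATAAA), the CCAAT box (CCAAT), the H1 box (AAACACA) and the octamer (ATTTGCAT).
HIST1H1B, chr6:27867589-27867838, minus strand: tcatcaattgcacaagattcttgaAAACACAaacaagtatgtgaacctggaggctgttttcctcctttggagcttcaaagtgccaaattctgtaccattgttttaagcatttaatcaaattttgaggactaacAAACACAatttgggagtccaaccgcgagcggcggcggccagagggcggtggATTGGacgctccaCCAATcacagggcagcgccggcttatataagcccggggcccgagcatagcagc
HIST1H2BO, chr6:27893175-27893424, plus strand: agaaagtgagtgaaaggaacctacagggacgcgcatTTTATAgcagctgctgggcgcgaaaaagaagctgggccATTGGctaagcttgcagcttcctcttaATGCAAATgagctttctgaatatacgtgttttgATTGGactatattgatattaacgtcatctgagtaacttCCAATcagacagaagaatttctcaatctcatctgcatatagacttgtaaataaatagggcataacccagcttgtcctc
HIST1H3C, chr6:26045134-26045383, plus strand: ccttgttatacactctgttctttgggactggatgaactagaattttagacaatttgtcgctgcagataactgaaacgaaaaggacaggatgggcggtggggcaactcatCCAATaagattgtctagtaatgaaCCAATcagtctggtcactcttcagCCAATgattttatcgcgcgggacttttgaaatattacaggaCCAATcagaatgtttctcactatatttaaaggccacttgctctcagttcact
HIST1H4B, chr6:26027284-26027533, minus strand: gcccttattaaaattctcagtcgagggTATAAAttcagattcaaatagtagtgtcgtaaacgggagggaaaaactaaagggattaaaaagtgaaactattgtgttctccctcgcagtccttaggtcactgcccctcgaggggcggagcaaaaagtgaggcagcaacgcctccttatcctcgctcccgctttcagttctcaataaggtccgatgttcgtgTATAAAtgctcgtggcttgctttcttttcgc
HIST4H4, chr12:14771132-14771381, minus strand: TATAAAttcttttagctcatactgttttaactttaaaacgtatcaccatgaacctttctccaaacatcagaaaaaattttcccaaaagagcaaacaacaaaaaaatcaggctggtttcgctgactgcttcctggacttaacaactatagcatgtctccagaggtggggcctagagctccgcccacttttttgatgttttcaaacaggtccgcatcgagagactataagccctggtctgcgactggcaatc
The CCAAT box was present in 40 of 49 histone promoters (81.6%), against 35.7% of 27305 promoters of the same length, and it was found in all 40 promoters of the H1, H2A, H2B and H3 classes and in 0 of 9 H4 promoters. The octamer was present in 21 of 49 (42.9%), against 1.80% of all promoters, with 9 of 13 H2A and 11 of 14 H2B promoters among them. The H1 box was found in 4 of 4 H1 promoters and 7 of 49 in all, against 5.76% of all promoters. TATAAA was present in 33 of 49 (67.3%), against 12.0%. Windows of neighbouring genes can overlap: the window printed for HIST1H2BO holds much of that of the divergent gene HIST1H2AM, which lies on the opposite strand. HIST1H3D and HIST1H2AD have the same window. These matches are letters in a window and were not tested for use in HepG2.

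Histone RNA took a smaller share of the reads after palmitic acid in 8 of 8 clones, and the clones differed from each other by more than the treatment changed them. Together the 53 genes held 0.280, 0.439 and 0.102% of the reads in palmitic acid libraries of GG clones 1, 2 and 6, against 0.335, 0.474 and 0.148% in their control libraries. In GC clones 2, 3 and 4 the share was 0.264, 0.375 and 0.360% with palmitic acid, against 0.312, 0.475 and 0.427% in controls. In CC clones 1 and 3 it was 0.541 and 0.238% with palmitic acid, against 0.576 and 0.436% in controls. GG clone 6 was lowest under both conditions and CC clone 1 highest. With each identical pair counted once, the shares ran from 0.0915 to 0.503% and their mean log2 ratio was -0.34. The shares spanned 5.32-fold over the palmitic acid libraries and 3.90-fold over the controls. At 9314342 to 15777669 reads per library, the 95% Wilson interval of a share reached at most 1.82% of its value to either side, which covers counting error only.

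Per clone, the log2 ratio of the share with palmitic acid to that in control was -0.26, -0.11 and -0.54 in GG clones 1, 2 and 6, -0.25, -0.34 and -0.25 in GC clones 2, 3 and 4, and -0.09 and -0.87 in CC clones 1 and 3. The mean was -0.34 (SD 0.26, n = 8 clones), and -0.26 without CC clone 3. That clone's palmitic acid library was also the shallowest of the series, with 9314342 reads, and the part of depth in its share was not tested. As these are bulk libraries, fewer cells making histone RNA and less histone RNA per cell cannot be told apart. The share averaged 0.274 ± 0.169% with palmitic acid and 0.319 ± 0.164% in control in GG clones (SD, n = 3). In GC clones it averaged 0.333 ± 0.061% with palmitic acid and 0.405 ± 0.083% in control (SD, n = 3), and in CC clones 0.389 ± 0.214% with palmitic acid and 0.506 ± 0.099% in control (SD, n = 2). The clones of the 3 genotypes overlapped under both conditions.

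**Figure D1:**
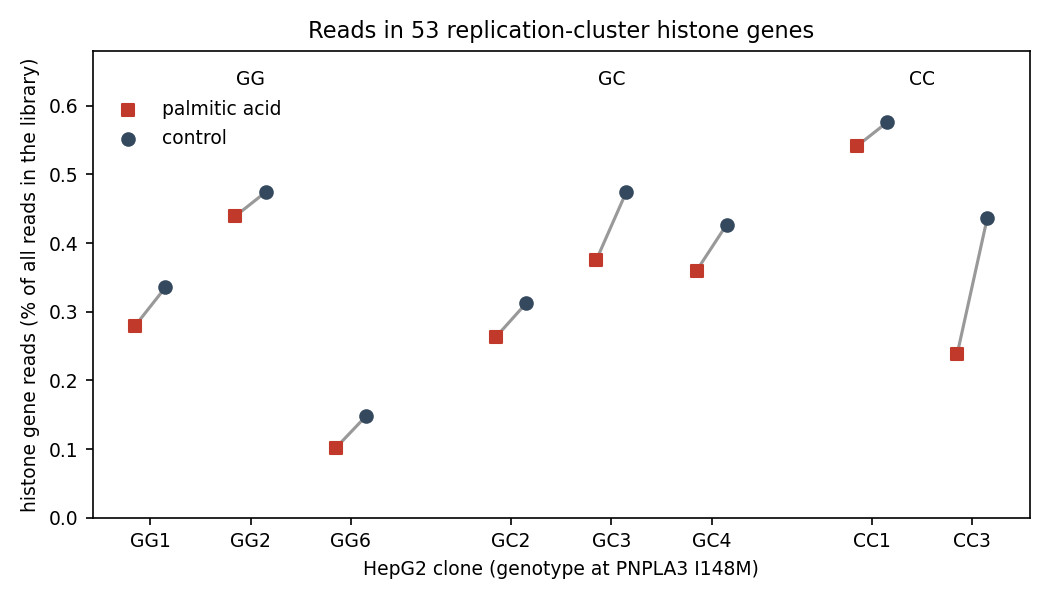
Summed reads of the 53 replication-cluster histone genes as a percent of all reads (vertical axis, from 0), for the palmitic acid and control library of each of the 8 clones, grouped by genotype. The palmitic acid value lies below the control value in every clone, from a log2 ratio of -0.09 in CC clone 1 to -0.87 in CC clone 3.

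The histone reads were spread over the 5 classes. Over the 16 libraries H2A genes held 28.4 to 35.2% of them, H3 genes 16.0 to 22.9%, H2B genes 14.4 to 21.9%, H4 genes 13.6 to 20.7% and H1 genes 11.2 to 16.8%. Shares of H1, H2A, H3 and H4 RNA in all reads were lower with palmitic acid in 8 of 8 clones, with mean log2 ratios of -0.31, -0.32, -0.44 and -0.30. The H2B share was lower in 7 of 8, with a mean of -0.32. The exception was GG clone 2, with 0.0864% of reads with palmitic acid, against 0.0685% in control. H2B genes took 19.7% of that clone's histone reads with palmitic acid, against 14.4% in control. In CC clone 3 the H4 share had a log2 ratio of -0.38, against -1.03 to -0.83 for the other 4 classes, and H4 genes took 20.7% of its histone reads with palmitic acid, against 14.7% in control. The HIST1 and HIST2 clusters had mean log2 ratios of -0.35 and -0.32, each lower in 8 of 8 clones, while HIST4H4 had -0.04 and was lower in 4 of 8.

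Single genes were compared on log2 of the deposited units, which are CPM on library sizes scaled by the trimmed mean of M-values (TMM), plus 0.5. A mean of at least 1 unit was required, which 13095 genes passed, 46 of the 53 histone genes among them. The other 7 were HIST1H1D, HIST1H2BE, HIST1H2BH, HIST1H3E, HIST1H3J, HIST1H4A and HIST2H2BC, with 36 reads or fewer in any library. In limma's test on the 6 group means, averaged over the genotypes with no replicate block, 0 of 46 histone genes passed an adjusted p of 0.05 in either direction, and 1 had an unadjusted p under 0.05. edgeR and DESeq2 on the recovered reads also called 0. In that fit 0.0229% of all tested genes were called lower and as many higher. With the clone as a replicate block, which compares each clone's palmitic acid library with its own control, 25 of 46 histone genes (54.3%) fell and 0 rose, against 9.52% of all tested genes called lower and 9.33% called higher. Counting each identical pair once leaves 23 that fell.

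All 46 estimates were below 0, against 51.5% of all tested genes, and their median was -0.34, against -0.01 for all. The values moved the same way in 8 of 8 clones, downwards, for 14 of the 46, against 6.79% of all genes, and upwards for 0, against 6.77%. CC clone 3 had the deepest falls, with a median of -0.78. Without that clone the fit with the block called 10 of the 46 lower, against 4.51% of all genes. Without GC clone 3 it called 16 (5.41% of all genes), without GG clone 1 17 (5.93%) and without GG clone 6 17 (7.54%). Without CC clone 1 it called 37 (14.6%). Counts of histone genes and of all genes thus shrank together without CC clone 3 and grew together without CC clone 1. With 1 CC clone left out, the other alone gave the CC response, which was weighted as much as that of GG or GC. Those counts therefore rest heavily on 1 clone.

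**Figure D2:**
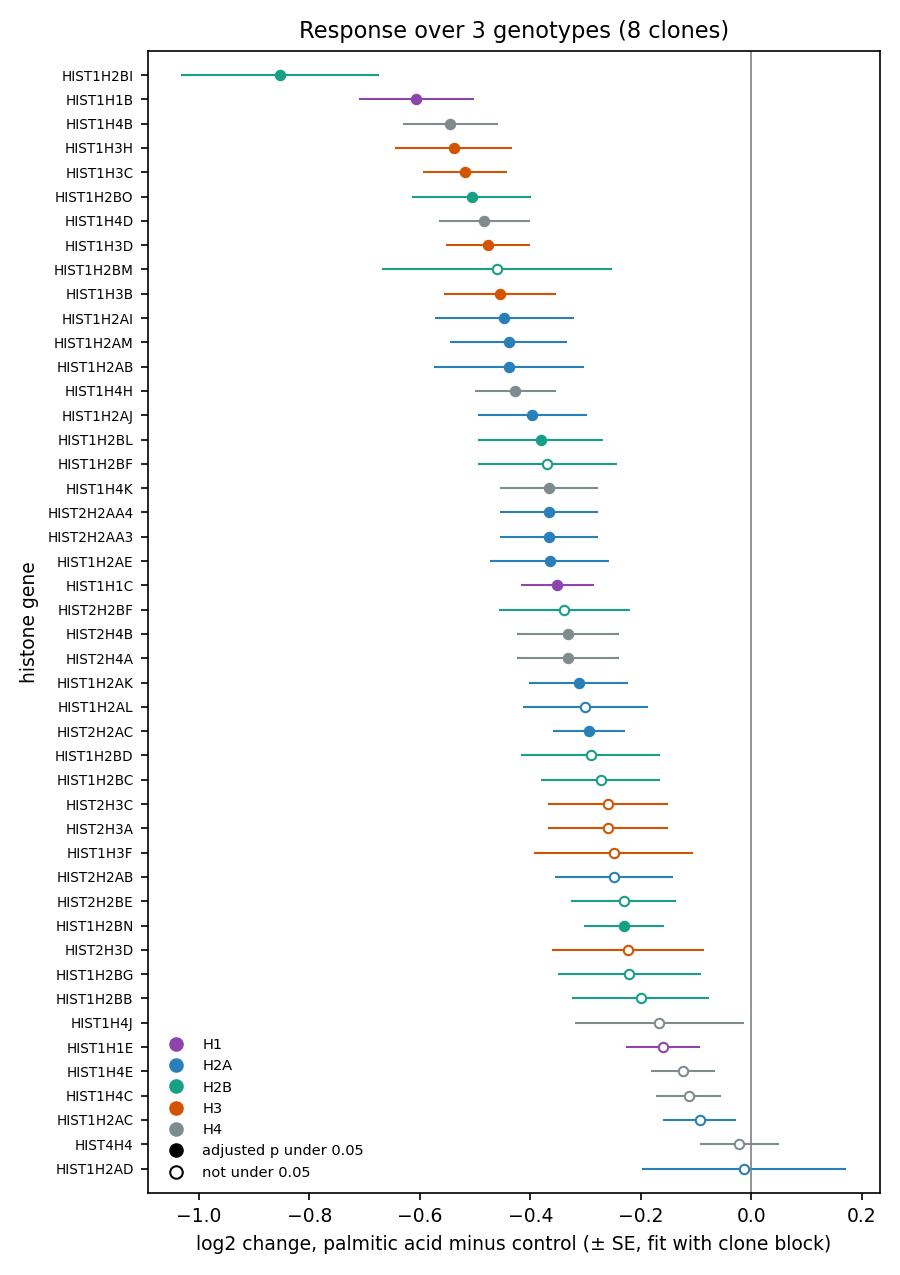
Log2 difference of palmitic acid minus control (horizontal axis, in log2 of units + 0.5) for each of the 46 tested histone genes, as the estimate and its error in the fit with the clone as a replicate block, averaged over the 3 genotypes. All 46 estimates lie below 0, from -0.85 for HIST1H2BI to -0.01 for HIST1H2AD.

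Among the linker histones, HIST1H1B and HIST1H1C fell and HIST1H1E did not pass the test. HIST1H1B (chr6:27866849-27867529, a single exon on the minus strand) had 22.3, 53.6 and 4.75 units with palmitic acid against 28.5, 61.5 and 9.26 in control in GG clones 1, 2 and 6, 25.7, 44.7 and 29.7 with palmitic acid against 34.7, 60.8 and 50.1 in control in GC clones 2, 3 and 4, and 39.7 and 15.2 with palmitic acid against 51.1 and 36.6 in control in CC clones 1 and 3. Its value was lower with palmitic acid in every clone, and GG clone 6 and CC clone 3 were the lowest treated libraries. The log2 change was -0.61 ± 0.10 (SE, adjusted p = 0.0032 by limma with the block and 0.81 without it). HIST1H1C (chr6:26055787-26056428), which held 7.99% of all histone reads, had 255, 352 and 91.7 units in GG clones 1, 2 and 6, 242, 319 and 293 units in GC clones 2, 3 and 4 and 332 and 171 units in CC clones 1 and 3 with palmitic acid. Their controls had 288, 443 and 116 units in the GG clones, 265, 372 and 391 units in the GC clones and 388 and 299 units in the CC clones. It was lower in 8 of 8 clones, with a log2 change of -0.35 ± 0.07 (adjusted p = 0.0049 with the block, 0.83 without). HIST1H1E, with 4.27% of histone reads, had a log2 change of -0.16 ± 0.07 (adjusted p = 0.12 with the block), and GG clone 2 was its only clone with the higher value under palmitic acid.

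H2A genes encode a core histone that dimerizes with H2B. With the block 9 of 13 fell, against 9.52% of all tested genes called lower. The lowest and highest log2 changes of the class were -0.45 and -0.01. The identical pair HIST2H2AA3 (chr1:149842188-149842736) and HIST2H2AA4 took the most reads of the class, with 7.13% of histone reads each. Either had 198, 292 and 72.3 units with palmitic acid against 218, 377 and 106 in control in GG clones 1, 2 and 6, 170.5, 243 and 327 with palmitic acid against 217, 295 and 309.6 in control in GC clones 2, 3 and 4, and 393 and 156 with palmitic acid against 437 and 307 in control in CC clones 1 and 3. GC clone 4 alone had the higher value with palmitic acid. The log2 change was -0.37 ± 0.09 (adjusted p = 0.016 with the block, 0.84 without). Without CC clone 3 it was -0.23 and no longer passed (adjusted p = 0.073 with the block). HIST2H2AC (chr1:149886975-149887364) had a log2 change of -0.29 ± 0.07 (adjusted p = 0.011 with the block), and -0.24 without CC clone 3 (adjusted p = 0.059). At the other end, HIST1H2AC and HIST1H2AD, named here after their values were seen, had log2 changes of -0.09 and -0.01 with adjusted p of 0.34 and 0.97. HIST1H2AD had 3 clones with the lower value under palmitic acid. The part of the overlapping AL031777.3 in its reads was not tested.

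In the H2B class 4 of 12 tested genes fell with the block, against 9.52% of all tested genes called lower. HIST1H2BI (chr6:26272976-26273356), a gene with few reads, had the largest change of all histone genes. It had 3.14, 3.71 and 1.00 units in GG clones 1, 2 and 6, 4.63, 8.03 and 5.63 units in GC clones 2, 3 and 4 and 8.30 and 3.15 units in CC clones 1 and 3 with palmitic acid. Their controls had 5.26, 3.25 and 3.84 units in the GG clones, 9.96, 11.6 and 9.58 units in the GC clones and 12.7 and 11.2 units in the CC clones. GG clone 2 was the only clone with the higher value after treatment, and in GC and CC clones the treated libraries, at 8.30 units or less, all lay below the controls, at 9.58 units or more. The log2 change was -0.85 ± 0.18 (adjusted p = 0.0080 with the block and 0.33 without). HIST1H2BO (chr6:27893463-27893843) had 74.7, 122 and 15.3 units with palmitic acid against 92.2, 149 and 26.3 in control in GG clones 1, 2 and 6, 71.8, 105 and 109.5 with palmitic acid against 82.5, 145 and 131 in control in GC clones 2, 3 and 4, and 172 and 41.2 with palmitic acid against 196 and 105 in control in CC clones 1 and 3. All clones had the lower value with palmitic acid, and the log2 change was -0.51 ± 0.11 (adjusted p = 0.0086 with the block, 0.84 without). Without CC clone 3 the change was -0.31 (adjusted p = 0.021 with the block). HIST1H2BC, with 3.86% of histone reads the most of its class, had -0.27 ± 0.11 (adjusted p = 0.099 with the block). It was lower in 7 clones and higher in GG clone 2, at 174 units with palmitic acid, against 129 units in control.

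Of the H3 genes, which encode the core histone that pairs with H4, 4 of 8 tested fell, against 9.52% of all tested genes. HIST1H3C (chr6:26045411-26045821) had the smallest p of all histone genes. It had 72.1, 108 and 19.3 units with palmitic acid against 95.8, 157 and 35.5 in control in GG clones 1, 2 and 6, 67.1, 90.6 and 77.2 with palmitic acid against 81.4, 128 and 121 in control in GC clones 2, 3 and 4, and 137 and 52.3 with palmitic acid against 157 and 89.6 in control in CC clones 1 and 3. Every clone's treated library was lower than its own control, while between clones the values ran over each other. The log2 change was -0.52 ± 0.08 (adjusted p = 0.0014 with the block, 0.79 without). HIST1H3H (chr6:27810064-27811300), whose transcript carries the most frequent stem-loop form, had 67.7, 144 and 25.2 units in GG clones 1, 2 and 6, 68.1, 109 and 114 units in GC clones 2, 3 and 4 and 119 and 77.6 units in CC clones 1 and 3 with palmitic acid. Their controls had 81.5, 183 and 41.7 units in the GG clones, 105, 147 and 114 units in the GC clones and 149 and 194 units in the CC clones. It was lower in 8 of 8 clones, though by only 0.01 on the log2 scale in GC clone 4. The log2 change was -0.54 ± 0.11 (adjusted p = 0.0058 with the block, 0.75 without). HIST1H3D, with 5.56% of histone reads the most of its class, had -0.48 ± 0.08 (adjusted p = 0.0021 with the block), and it was lower in 8 of 8 clones.

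Of the H4 genes, which all encode the same protein, 6 of 10 tested fell, against 9.52% of all tested genes. HIST1H4B (chr6:26026815-26027252) had 61.6, 117 and 16.4 units with palmitic acid against 79.2, 128 and 26.5 in control in GG clones 1, 2 and 6, 51.2, 75.4 and 73.2 with palmitic acid against 72.2, 105 and 88.3 in control in GC clones 2, 3 and 4, and 97.5 and 37.6 with palmitic acid against 133 and 88.6 in control in CC clones 1 and 3. It was lower with palmitic acid in every clone, with a log2 change of -0.55 ± 0.09 (adjusted p = 0.0021 with the block, 0.79 without). HIST4H4 (chr12:14767999-14771131, minus strand) had 26.3, 30.3 and 15.8 units in GG clones 1, 2 and 6, 23.7, 24.2 and 18.5 units in GC clones 2, 3 and 4 and 35.0 and 17.7 units in CC clones 1 and 3 with palmitic acid. Their controls had 21.2, 29.6 and 16.8 units in the GG clones, 26.0, 23.7 and 22.8 units in the GC clones and 31.7 and 20.0 units in the CC clones. It was lower in 4 clones and higher in 4, with a log2 change of -0.02 ± 0.07 (adjusted p = 0.86 with the block). HIST1H4C (chr6:26103876-26104310), which took the most reads of the class with 3.17% of histone reads, had a log2 change of -0.11 ± 0.06 (adjusted p = 0.20 with the block). It was lower in 7 clones and higher in CC clone 3, at 145 units with palmitic acid, against 117 units in control. In that clone HIST1H4C and HIST1H4E were the only tested histone genes with the higher value under palmitic acid. The other 44 were lower, against 51.1% of all tested genes. The differences between H4 genes in their change were not tested.

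The called genes were also counted by promoter motif. With the block, 15 of 30 genes with TATAAA in the window fell, with a median log2 change of -0.33, and 10 of 15 without it, with -0.34. For the CCAAT box the counts were 19 of 36 (median -0.35) with it and 6 of 9 (median -0.33) without it. For the octamer they were 8 of 19 (median -0.34) and 17 of 26 (median -0.34). For the H1 box they were 3 of 6 (median -0.28) and 22 of 39 (median -0.36). These counts are descriptions with no test, since genes of a class share both letters and sequence.

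Within single genotypes the median log2 change of the 46 genes was -0.26 in GG clones, -0.26 in GC clones and -0.48 in CC clones, and 42, 44 and 44 of the estimates were below 0. With no replicate block 0 of 46 were called in any genotype, with 0, 0 and 1 at an unadjusted p under 0.05 in GG, GC and CC, and edgeR and DESeq2 called 0 as well. Of all tested genes at most 0.00764% were called in either direction there. With the block 1 gene fell in GG clones, against 0.267% of all tested genes called lower and 0.573% called higher. It was HIST1H3C, with a log2 change of -0.60 ± 0.12 (adjusted p = 0.049 by limma with the block). In CC clones 2 fell, against 1.45% of all genes called lower and 0.848% called higher, namely HIST1H4B with -0.84 ± 0.17 (adjusted p = 0.035) and HIST2H2AC with -0.57 ± 0.13 (adjusted p = 0.048). In GC clones 0 passed, against 0.664% of all genes called lower and 0.878% called higher, with 13 at an unadjusted p under 0.05. The responses of the genotypes were also compared with each other: of GG minus GC, GG minus CC and GC minus CC, 0 of 46 genes passed in either fit by limma, with 0, 4 and 1 at an unadjusted p under 0.05 with the block. Of all tested genes 0.00764% were called lower in GG minus CC and in GC minus CC.

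By clone, the median log2 change of the 46 genes was -0.27, -0.03 and -0.58 in GG clones 1, 2 and 6, -0.20, -0.42 and -0.19 in GC clones 2, 3 and 4, and -0.09 and -0.78 in CC clones 1 and 3. The median of all genes lay between -0.02 and 0.02 in each clone. In GG clone 2, 25 of 46 genes had the lower value with palmitic acid, in CC clone 1 33, and in the other clones 39 to 44. Of all tested genes 48.2% had the lower value in GG clone 2, 52.8% in CC clone 1 and 46.9 to 53.0% in the others. The 2 CC clones thus had the deepest and one of the mildest medians.

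**Figure D3:**
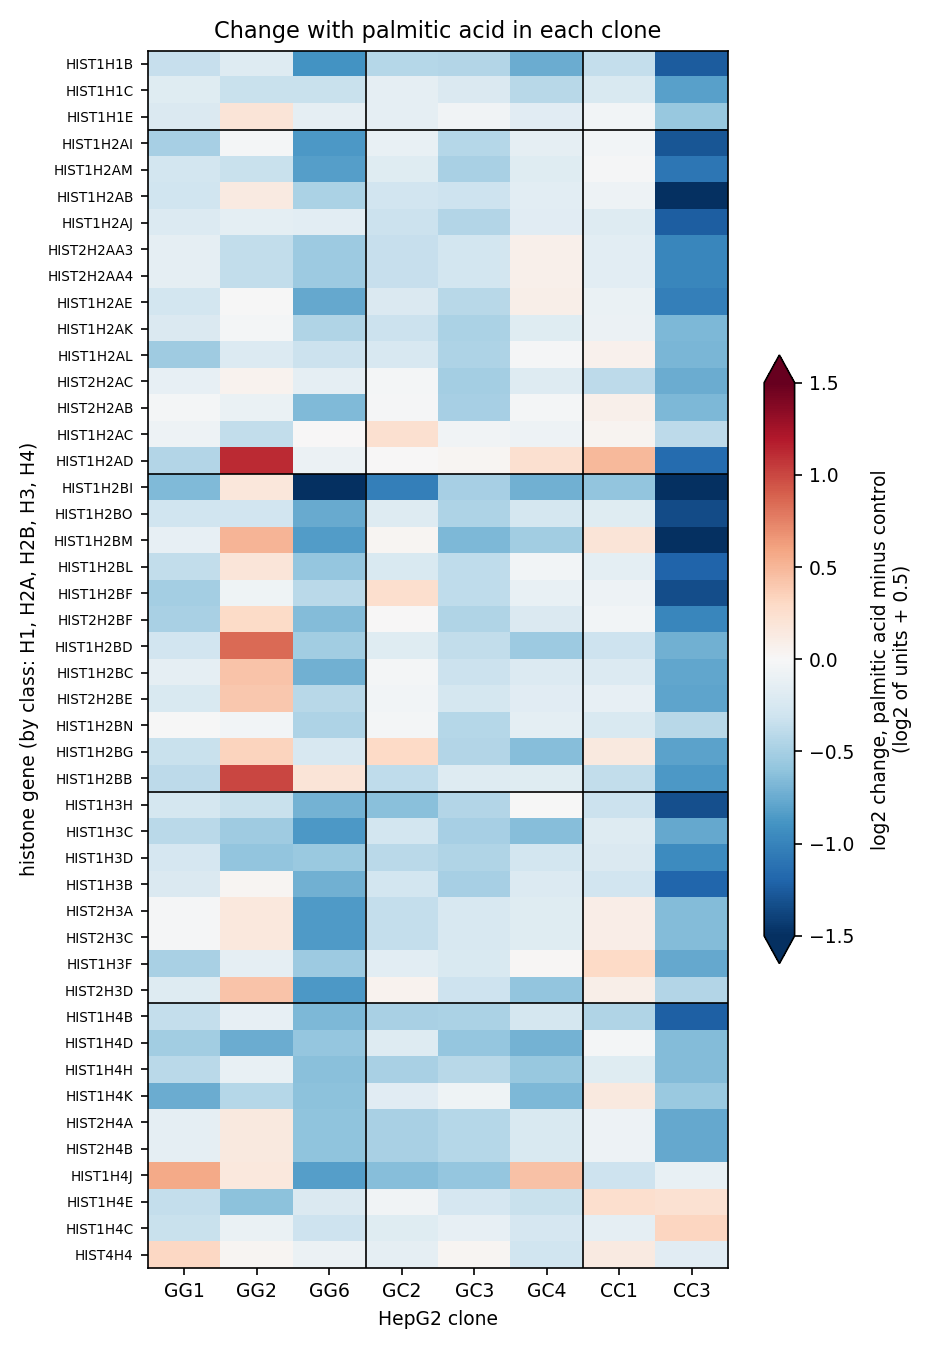
Log2 change of palmitic acid minus control in each of the 8 clones (columns, GG, GC and CC from left to right) for the 46 tested histone genes (rows), with the colour scale in log2 of units + 0.5. GG clones 1 and 6, GC clone 3 and CC clone 3 show lower values with palmitic acid in 44 of 46 genes each, while GG clone 2 shows them in 25. Of all tested genes 46.9 to 53.0% were lower, depending on the clone.

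Between genotypes, most estimates were lowest for GG clones, but 0 histone genes passed the test. In palmitic acid libraries the median log2 difference of the 46 genes was -0.50 for GG against GC, with 44 below 0, -0.63 for GG against CC, with 46 below 0, and -0.14 for GC against CC, with 32 below 0. In control libraries the medians were -0.50 for GG against GC (45 below 0), -0.84 for GG against CC (46 below 0) and -0.31 for GC against CC (43 below 0). The median over all genes was within 0.02 of 0 in each of these 6 comparisons. By limma 0 of 46 were called in each of the 6, with 0 to 4 at an unadjusted p under 0.05, and edgeR and DESeq2 called 0. Of all tested genes at most 0.00764% were called in any of the 6. All GG clones lay below both CC clones for 3 of 46 genes with palmitic acid, against 5.57% of all tested genes, and for 16 of 46 in control, against 5.19%. All GC clones lay below both CC clones for 2 genes with palmitic acid, against 12.3%, and for 8 in control, against 12.5%. All GG clones lay below all GC clones for 1 gene, HIST1H2BI, in either condition, against 5.75% with palmitic acid and 6.32% in control. The opposite order, with all clones of the first-named genotype above, was found for 0 histone genes in each of the 6. Over all tested genes it held for 6.14% with palmitic acid and 5.99% in control for GG above GC, for 6% with palmitic acid and 4.17% in control for GG above CC, and for 13.2% with palmitic acid and 10.7% in control for GC above CC.

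Clones of the same genotype differed widely. GG clone 6 was the lowest of the 8 clones for 45 of 46 genes with palmitic acid and for 43 in control, while CC clone 1 was the highest for 31 and 29. GG clone 2 was the highest for 9 genes with palmitic acid and for 11 in control, so that GG clones stood at both ends. How often each clone was lowest or highest among all tested genes was not counted. Whether this order is particular to histone genes is therefore not shown. The SD between clones of a gene's log2 mean over its 2 libraries had a median of 0.732 for histone genes, against 0.271 for all tested genes.

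HIST1H2BM, HIST1H2AB and HIST1H2BB varied most between clones, with an SD of 1.36, 1.13 and 0.977 on the log2 scale. HIST1H2BM (chr6:27815044-27815424) had 5.80, 34.6 and 0.548 units in GG clones 1, 2 and 6, 10.4, 9.15 and 4.97 units in GC clones 2, 3 and 4 and 26.5 and 4.01 units in CC clones 1 and 3 with palmitic acid. Their controls had 6.36, 24.2 and 1.37 units in the GG clones, 10.2, 14.8 and 7.32 units in the GC clones and 23.1 and 16.1 units in the CC clones. GG clones 2 and 6 marked the highest and the lowest values under both conditions, so the range of the series lay within 1 genotype. HIST1H2AB had 36.5, 86.5 and 5.94 units in GG clones 1, 2 and 6, 39.5, 57.4 and 50.5 units in GC clones 2, 3 and 4 and 69.3 and 12.6 units in CC clones 1 and 3 with palmitic acid. Their controls had 45.2, 79.1 and 8.47 units in the GG clones, 48.5, 71.5 and 56.2 units in the GC clones and 73.2 and 39.5 units in the CC clones. For HIST1H2BB the treated libraries ran from 8.40 to 70.3 units and the controls from 7.31 to 83.9 units, and its value in GG clone 2 was 70.3 units with palmitic acid, against 34.8 units in control. HIST4H4, HIST1H4C and HIST1H1E varied least, with an SD of 0.331, 0.347 and 0.417, and even these lay above the median of all genes.

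Of 15 factors that transcribe, process and degrade histone RNA, all tested, 2 rose and 0 fell with palmitic acid in the fit with the block, against 9.33% of all tested genes called higher and 9.52% called lower. Their median log2 change was 0.02, and without the block 0 passed. SLBP, which binds the stem-loop, had 35.1 to 70.1 units in palmitic acid libraries and 35.6 to 58.5 units in controls, with a log2 change of 0.06 ± 0.06 (adjusted p = 0.51 with the block). NPAT, the transcriptional coactivator of the clusters, had 25.4 to 41.9 units with palmitic acid and 30.5 to 38.4 units in control and a log2 change of -0.05 ± 0.06 (adjusted p = 0.63). LSM10 and LSM11, protein parts of the U7 particle, had log2 changes of 0.12 (adjusted p = 0.23) and -0.18 (adjusted p = 0.16). The genes that rose were CSTF2, a subunit of the 3' cleavage machinery, by 0.27 ± 0.08 (adjusted p = 0.042), and ZCCHC6, a uridylyltransferase, by 0.25 ± 0.06 (adjusted p = 0.017).

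Of 28 tested genes of DNA replication and S phase, 0 rose and 6 fell with the block, CDT1, GINS2 and POLE among them, against 9.52% of all tested genes called lower. Their median log2 change was -0.22, and without the block 0 passed. GINS2, part of the replicative helicase, fell by 0.53 ± 0.11 (adjusted p = 0.0069), CDT1, which loads that helicase, fell by 0.44 ± 0.09 (adjusted p = 0.0051), and each was lower in 8 of 8 clones. Summed over the 28 genes, the level was 1834, 2802 and 860.1 units with palmitic acid in GG clones 1, 2 and 6, against 1883, 2492 and 1319 units in control. In GC clones 2, 3 and 4 it was 1539.6, 1607 and 1610.1 units with palmitic acid, against 1729, 2141 and 1861 units in control. In CC clones 1 and 3 it was 2889.9 and 1405 units with palmitic acid, against 2823 and 1905 units in control. GG clone 6 was lowest under both conditions in this sum as in the histone share. In GG clone 2 and CC clone 1 the sum was higher with palmitic acid while the histone share was lower. The part of S-phase content in the histone values was not tested.

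**Figure D4:**
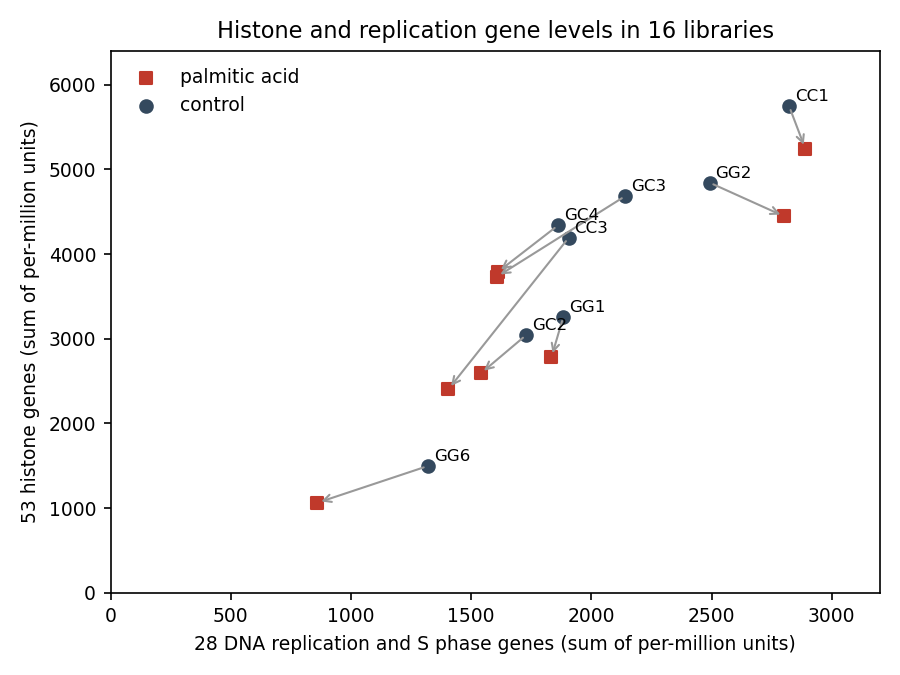
Summed histone units (vertical axis) against the summed units of 28 genes of DNA replication and S phase (horizontal axis) in the 16 libraries, with an arrow from the control to the palmitic acid library of each clone. Every arrow points down, and those of GG clone 2 and CC clone 1 point to the right.

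Other gene groups were read in the same fit with the block, in which 9.52% of all tested genes were called lower and 9.33% higher. Of 11 tested variant histone genes outside the clusters, most of them known for polyadenylated RNA made throughout the cell cycle, 1 rose and 0 fell. The riser was H2AFY2, a macroH2A gene, by 0.28 ± 0.08 (adjusted p = 0.035), and the median log2 change was -0.06. Of 19 histone chaperones 0 rose and 5 fell (NASP, ASF1B, CHAF1B, HIRA and MMS22L), with a median of -0.04. NASP, which binds soluble H3 and H4, fell by 0.18 ± 0.05 (adjusted p = 0.037) and was lower in 8 of 8 clones. Of 13 tested small and long RNAs that lack a poly(A) tail for other reasons, 0 were called in either direction, with 0 by limma without the block too and 1 at an unadjusted p under 0.05 there, and the median was 0.07. Without the block 0 genes of each of these lists passed.

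Hepatocyte markers were measured in all 16 libraries, and 6 of 9 fell with the block (ALB, AFP, APOA1, TF, FGB and HNF4A), against 9.52% of all tested genes, with a median log2 change of -0.40. Without the block 0 of the 9 passed, with 1 at an unadjusted p under 0.05. Of 7 tested markers of other liver and blood cells, 1 rose (PDGFRB) and 2 fell (CD14 and PECAM1) with the block, and without it 0 passed. Summed, the hepatocyte list ran from 19465 to 38024 units with palmitic acid and from 21242 to 42763 units in control in GG clones, from 25230 to 38750.2 with palmitic acid and from 31086 to 51089 units in control in GC clones, and from 15308 to 34688 with palmitic acid and from 28797 to 42909.9 units in control in CC clones. The markers of other cells summed to 23.7 to 109 units with palmitic acid and 24.4 to 112 units in control in GG clones, 24.6 to 35.2 with palmitic acid and 31.5 to 32.9 units in control in GC clones, and 27.6 to 40.9 with palmitic acid and 28.3 to 35.7 units in control in CC clones. COL1A1 was at 0 in 2 libraries, and the other cell markers stayed at 48.2 units or less in every library. Hepatocyte markers were not uniformly high. APOB and AFP, with medians of 14952 and 11377 units, weigh most in the hepatocyte sum. ALB ran from 17.7 to 820 units and TTR from 1.63 to 145 units (median 7.35), so both reached into the range of the other cell markers. PTPRC, VWF, KRT7 and HBB were also looked for, but they are not among the genes with values. The part of these shifts in the histone values was not tested.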

How the data were processed

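The values analysed are those of the table the authors deposited, with 16 libraries from 8 HepG2 clones. Per the labels' protocols, total RNA (TRIzol, SV Total RNA kit) was depleted of ribosomal RNA and made into directional libraries. Tools named in the submitters' processing notes are Trimmomatic (0.38), RSEM (1.3.0), Bowtie2 and edgeR, with build hg38. Not given in the sources used here: annotation, rounding, vehicle and use of strand. The deposited signal was found to be CPM with TMM scaling: dividing by a library's smallest step gave whole read counts for 100% of values (tolerance 0.01 reads), and TMM factors recomputed from these differed by a relative 1.4e-15 at most.

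limma's trended test, two-sided, was run on log2(unit + 0.5) of the 13095 genes averaging 1 unit or more, with 6 group means and 10 residual degrees of freedom. P-values were adjusted by Benjamini-Hochberg across those genes, at 0.05. The second fit added the clone as a replicate block (5 residual degrees of freedom). The pairing comes from the clones: same-numbered libraries of a genotype are the same cell line. As a check, deviations from group means correlated at 0.523 to 0.857 between a clone's libraries, and in 8 of 8 clones each correlated best with its own partner. DESeq2 (1.42.0), edgeR (4.0.16) and limma (3.58.1) were run in R (4.3.3), and the limma fits were also run on simulated data. In the simulation a changed gene had the same change in every clone, so it does not cover clones that differ in their response. Positions and transcripts came from GENCODE v29, promoters from RefSeq.

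Members and gene lists were chosen with earlier results of these data known. Named members were those with most reads per class or of all, up to 6 per comparison with the largest change among those past the threshold in either fit, those most and least variable between clones, and the largest changes shared by 8 of 8 clones. For other lists, up to 3 genes of smallest p were named, with SLBP, NPAT, LSM10 and LSM11.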

Additional observations from a re-analysis of the deposited data

Results flagged for a closer look

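HIST1H4E stood out because its direction differed between genotypes in every clone. The gene, an H4 gene of the HIST1 cluster, had 51.0, 78.7 and 34.4 units in GG clones 1, 2 and 6, 58.3, 77.2 and 58.1 units in GC clones 2, 3 and 4 and 102 and 92.3 units in CC clones 1 and 3 with palmitic acid. Their controls had 65.4, 121 and 40.0 units in the GG clones, 60.3, 92.0 and 73.1 units in the GC clones and 85.5 and 78.9 units in the CC clones. All GG and GC clones had the lower value with palmitic acid, and both CC clones had the higher one. The response of GG minus that of CC was -0.63 ± 0.15 on the log2 scale (SE, unadjusted p = 0.0012, adjusted p = 0.80 by limma with the clone as a replicate block). The response of GC minus that of CC was -0.45 ± 0.15 (unadjusted p = 0.011, adjusted p = 0.91). Neither difference passed adjustment over all tested genes in either fit. HIST1H4E was named for this pattern after its values were seen, in a search of the 46 tested histone genes over each pair of genotypes. Its unadjusted p-values thus come from the values that picked it, and CC has only 2 clones. How often all tested genes show this pattern was not counted.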

How the results depend on the processing

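With no replicate block, 0 of 46 histone genes were called in all 13 comparisons, and the count was also 0 to 0 when each library was left out in turn, with another pseudocount (0.1 or 1), filter, scaling or tool. Where a CC library was left out, the lone CC sample of that group was assumed to vary like the other groups. The clone as a replicate block moved the pooled count to 25, that of GG to 1 and that of CC to 2, and it moved no other count. Combinations with the block, chosen after the data were seen, gave 25 with pseudocounts 0.1 and 1, 25 with no filter, 25 with a mean of at least 5 units, 24 with total scaling, 24 with DESeq2 size factors, 23 with edgeR, 25 with DESeq2 and 22 with each clone weighted equally, with 6.82 to 10.1% of all genes called lower. With 1 clone left out, the count and, in parentheses, the share of all genes called lower were 17 (5.93%), 29 (8.19%) and 17 (7.54%) without GG clone 1, 2 or 6, 18 (7.35%), 16 (5.41%) and 20 (6.5%) without GC clone 2, 3 or 4, and 37 (14.6%) and 10 (4.51%) without CC clone 1 or 3. Where 1 CC clone was left out with the block, the other alone gave the CC response and was assumed to vary like the other genotypes. Leaving out both CC clones gave 22 (7.42%). HIST1H1B, HIST1H1C, HIST1H2BI, HIST1H2BO, HIST1H3C, HIST1H3D, HIST1H3H, HIST1H4B, HIST1H4D and HIST1H4H were called in 19 of 19 settings with the block. The mean log2 ratio of the summed share ran from -0.37 to -0.26 over left-out clones. The clone block could not be fitted between genotypes, since a clone has 1 genotype. HIST4H4 turned to 0.0013 with edgeR and 0.0042 with DESeq2, and over left-out libraries it ran from -0.18 to 0.14 without the block and from -0.07 to 0.03 with it (0.0066 without GG clone 6, 0.0052 without GC clone 4 and 0.0307 without CC clone 3). HIST1H1E ran from -0.33 to 0.0071 and HIST1H2BB from -0.47 to 0.071 over left-out libraries, and HIST1H2BB was 0.0068 with the block without both CC clones. The cause of these turns was not tested. Another scaling moved the median of all genes to -0.03 (total) or 0.00 (DESeq2 size factors).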
